A study of Mus musculus with 12 samples.

Results

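The genes examined here take up glucose and carry its carbon through glycolysis, into lactate or pyruvate, into the mitochondrion, and into the side branches of the pentose phosphate pathway, glycogen and glycerol phosphate. Of 46 such genes, 41 gave their name to at least 1 region in the deposited peak table, and all peaks carrying one of these names were taken, which gave 43 of the 15848 peaks. The peaks were measured by chromatin immunoprecipitation and sequencing (ChIP–seq) of histone H3 trimethylated at lysine 4 (H3K4me3), in nuclei of adult mouse cardiomyocytes (CMs) that had been sorted from frozen ventricles by their PCM1 signal. Cpt1bcKO mice carried floxed Cpt1b alleles (Cpt1b fl/fl) together with a Cre transgene driven by the αMHC promoter, which acts in CMs and removes exons 10 to 11 of Cpt1b from embryonic stages on. CtrlCre mice carried the same Cre transgene with wild-type Cpt1b alleles (Cpt1b +/+), so both groups were exposed to Cre, and both were C57BL/6. The labels call the cells adult and give no age. There were 3 H3K4me3 libraries for each genotype, and 6 input libraries served the peak calling and were not used here.

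H3K4me3 marks the starts of active genes, and broad H3K4me3 domains are known from genes that define a cell type or are strongly transcribed in it. CPT1B is the carnitine palmitoyltransferase that admits long-chain fatty acids to the mitochondria of heart and muscle, so its loss withdraws the main fuel of the adult CM. Glucose is the principal alternative fuel, and its oxidation is set largely by the pyruvate dehydrogenase complex, which kinases (PDKs) switch off and phosphatases (PDPs) switch on. The comparison of Cpt1bcKO with CtrlCre asks which of these glucose genes carried more or less H3K4me3 when fatty acid oxidation in CMs was blocked.

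Reads in peaks numbered 763133 to 2766416 per library, and CtrlCre replicate 2 was the shallowest. Values below are the authors' normalized read counts per peak, which set all libraries to a common depth and so cannot show a change shared by every peak. The counting error of a single library was 8.36% to 15.6% at the median peak. The Cpt1b peak covered exons 1 to 9 and not the deleted exons, and therefore does not check the deletion. Of the CM markers, 11 of 12 had a peak, with summed values of 8618 to 10273 in CtrlCre and 6506 to 9392 in Cpt1bcKO, the lowest in Cpt1bcKO replicate 3. Fibroblast and endothelial markers had 1 peak each among 6 listed, at summed values of 56 to 69 and 31 to 91, and none of 6 leukocyte markers had one. Smooth muscle and pericyte markers had 3 peaks of 5, with summed values of 140 to 217 in CtrlCre and 32 to 80 in Cpt1bcKO. That sum includes Acta2, whose peak was itself called lower in Cpt1bcKO (log2 difference -2.23, adjusted p = 7.36e-05, limma). Cspg4 (-1.05) and Myh11 (-0.72) were not called. Genotype and content of these cells therefore cannot be told apart in the sum, and their part in the differences below was not tested. Replicate 3 of both genotypes had reads at all 4 Y-linked peaks (49 to 130), whereas the other libraries were at 0 there. The peak over the Xist start, on the X chromosome, showed the opposite, with 6 and 7 in the replicate 3 libraries and 200 to 263 in the others. The labels give no sex, and each genotype thus held 1 library with and 2 libraries without Y-linked signal.

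Glucose genes carried wide peaks, as merged over all libraries, with high mean values over the 6 libraries. Of the 42 member peaks with a mean of at least 10, the level required for testing, 28 (66.7%) were broad, defined as wider than the upper quartile of all 15039 tested peaks, 2222 bases, and none was narrower than the lower quartile of 1030 bases. Among all tested peaks that carry a gene name, 28.0% were broad. The median member peak was 2726.5 bases wide with a mean value of 205, against 1643 bases and 123 for all named peaks. Per kilobase the members were ordinary, with a median of 71.3 against 69.6. Peaks over 5000 bases numbered 8 of 42 among the members (19.1%) and 3.66% among all named peaks. They belonged to Pfkfb1, Eno3, Pkm, Ldhb, Pfkfb2, Pdk4, Mpc2 and Gapdh.

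**Figure D1:**
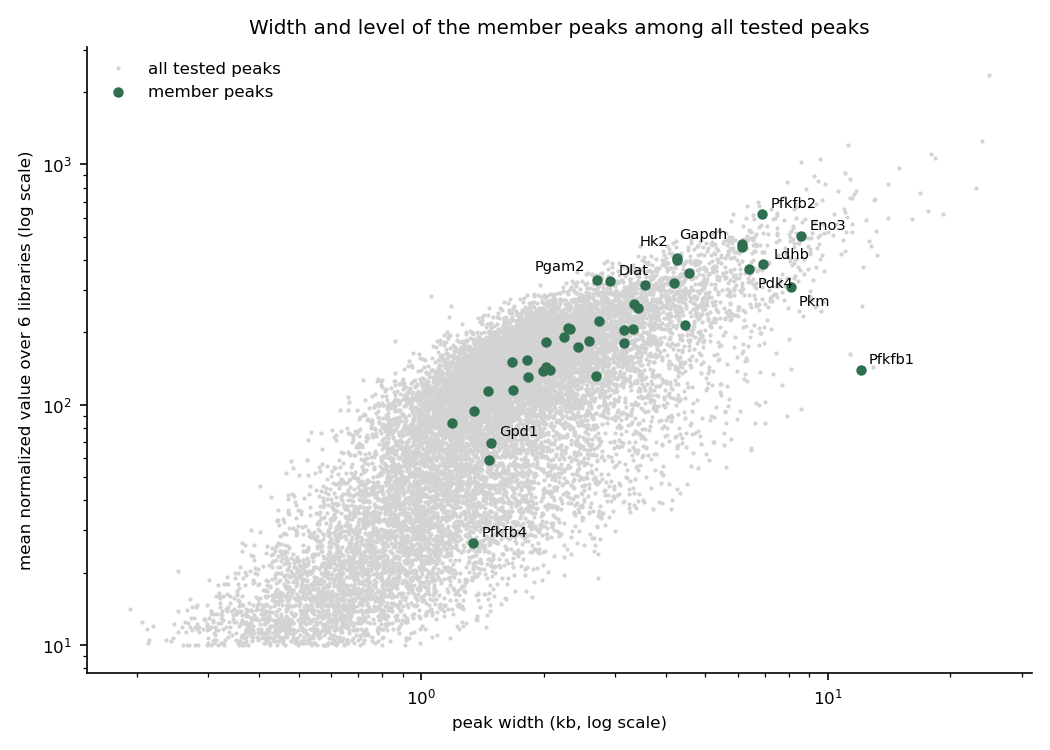
Width of each tested peak in kilobases (x, log scale) against its mean normalized value over the 6 libraries (y, log scale), with all 15039 tested peaks in grey and the 42 tested member peaks in green. Most members lie in the upper right of the cloud, while Pfkfb1 is very wide at 12036 bases but weak for its width.

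The width lay mostly inside the genes. By the gene starts in the table, 41 of the 42 tested member peaks (97.6%) held the start of the gene they are named for, and in 38 of these 41 more bases lay after the start than before it. The median extent was 555 bases before and 2073 bases after the start, against 543 and 1078 over all named peaks that held a start. The most extended was the peak of Pfkfb1, which reached 11374 bases into the gene. In all, 6 named peaks also held the start of another protein-coding gene in GENCODE vM21, so their values cannot be assigned to 1 promoter, namely those of Eno3 (Pfn1), Gys1 (Ruvbl2), Mpc2 (Dcaf6), Pfkfb1 (Apex2), Pfkfb2 (Yod1) and Pgm2 (Itgb3bp).

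**Figure D2:**
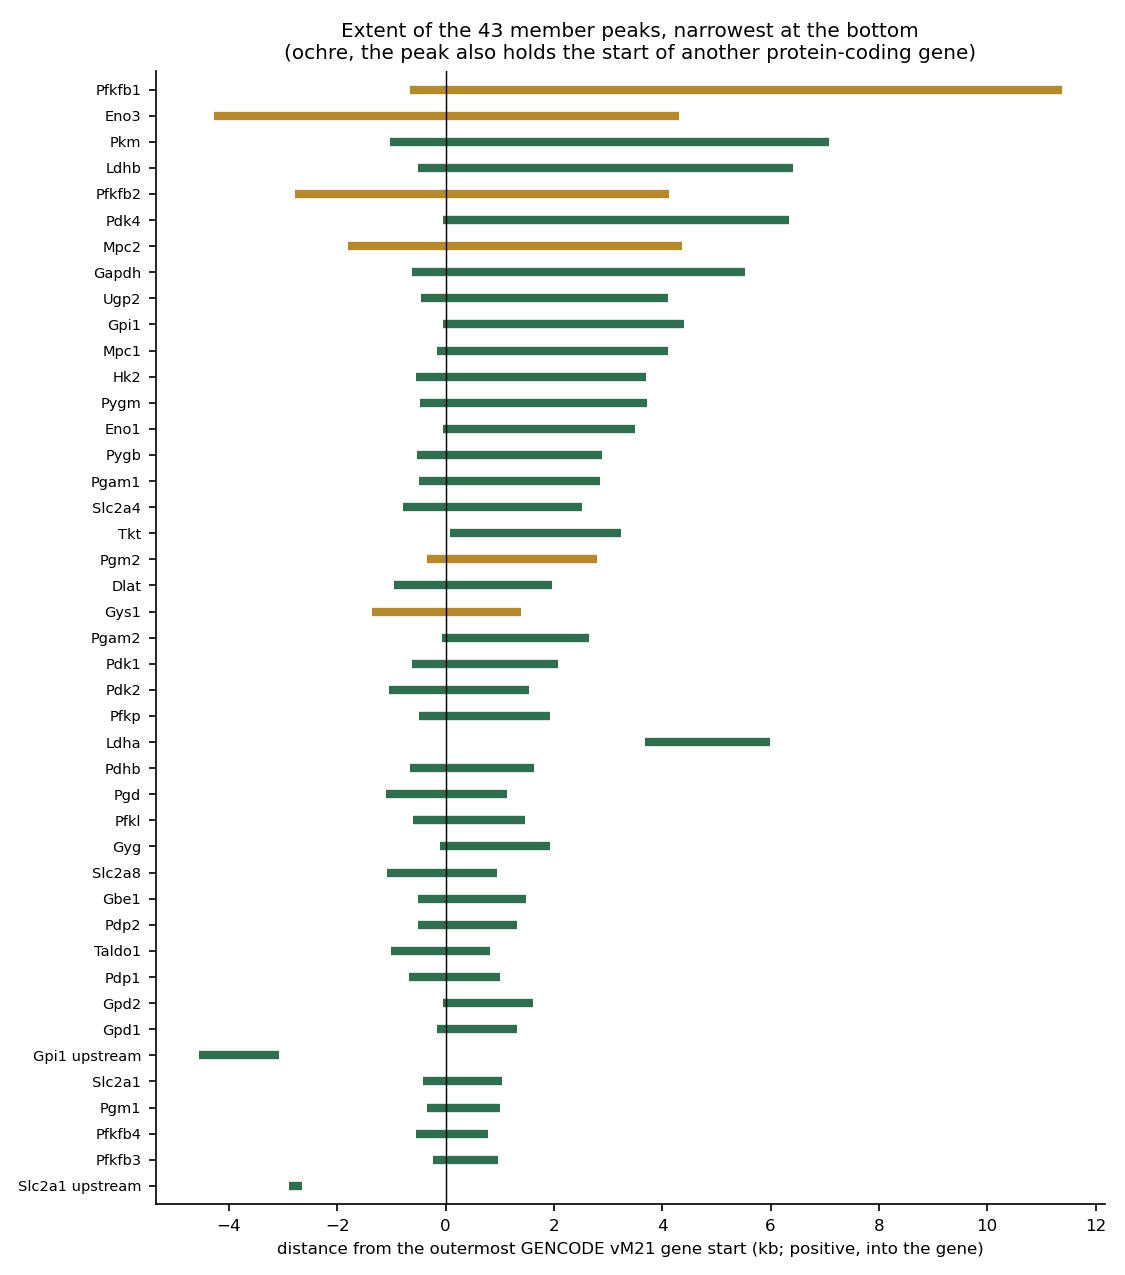
Extent of the 43 member peaks relative to the outermost gene start in GENCODE vM21 (x, kilobases, positive into the gene), ordered by width. Most bars lie to the right of the start, the Ldha peak begins 3673 bases downstream because it sits on the inner transcript starts, and the second peaks of Gpi1 and Slc2a1 lie wholly upstream.

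Levels per kilobase were compared across the members as means over both genotypes. The highest were those of Pgam2, the muscle form of phosphoglycerate mutase (122 per kb), Dlat, the acetyltransferase subunit of pyruvate dehydrogenase (112 per kb), and Hk2, the insulin-regulated hexokinase (95.9 per kb). Mpc1, a subunit of the mitochondrial pyruvate carrier, followed at 94.1 per kb, so the third and the next place are close. The lowest tested were Pfkfb1 (11.5 per kb) and Pfkfb4 (19.7 per kb). At Pgam2 the libraries read 334, 279 and 343 in CtrlCre and 343, 349 and 339 in Cpt1bcKO, groups that overlap.

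In Cpt1bcKO CMs, H3K4me3 was higher at 4 of the 42 tested member peaks and lower at 1, at an adjusted p under 0.05 in limma with Benjamini-Hochberg adjustment over all 15039 peaks. The background was 1.11% of all tested peaks higher and 1.82% lower, against 9.52% and 2.38% of the members. The members were chosen with earlier results of these data known, so these shares only describe the list. In such bulk libraries, less H3K4me3 per nucleus and fewer nuclei carrying the mark cannot be told apart. The higher peaks were those of Pdk4, which restrains pyruvate oxidation, Ugp2 and Pgm2, which make the glucose donor for glycogen, and Gpd1, which makes glycerol phosphate. The lower peak was that of Pfkfb1, one of the bifunctional enzymes that make and break fructose 2,6-bisphosphate, the activator of phosphofructokinase. No peak of a glucose transporter, hexokinase, lower glycolytic enzyme, lactate dehydrogenase or pyruvate carrier was called. Member peaks held more reads than most, with a median standard error of 0.11 on the log2 scale against 0.15 over all tested peaks. Without 1 library at a time the calls numbered 1 to 4 higher and 0 to 1 lower. They fell to 2 higher without CtrlCre replicate 1 or Cpt1bcKO replicate 1 and to 1 higher without Cpt1bcKO replicate 2, and the lower call was lost without Cpt1bcKO replicate 3.

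**Figure D3:**
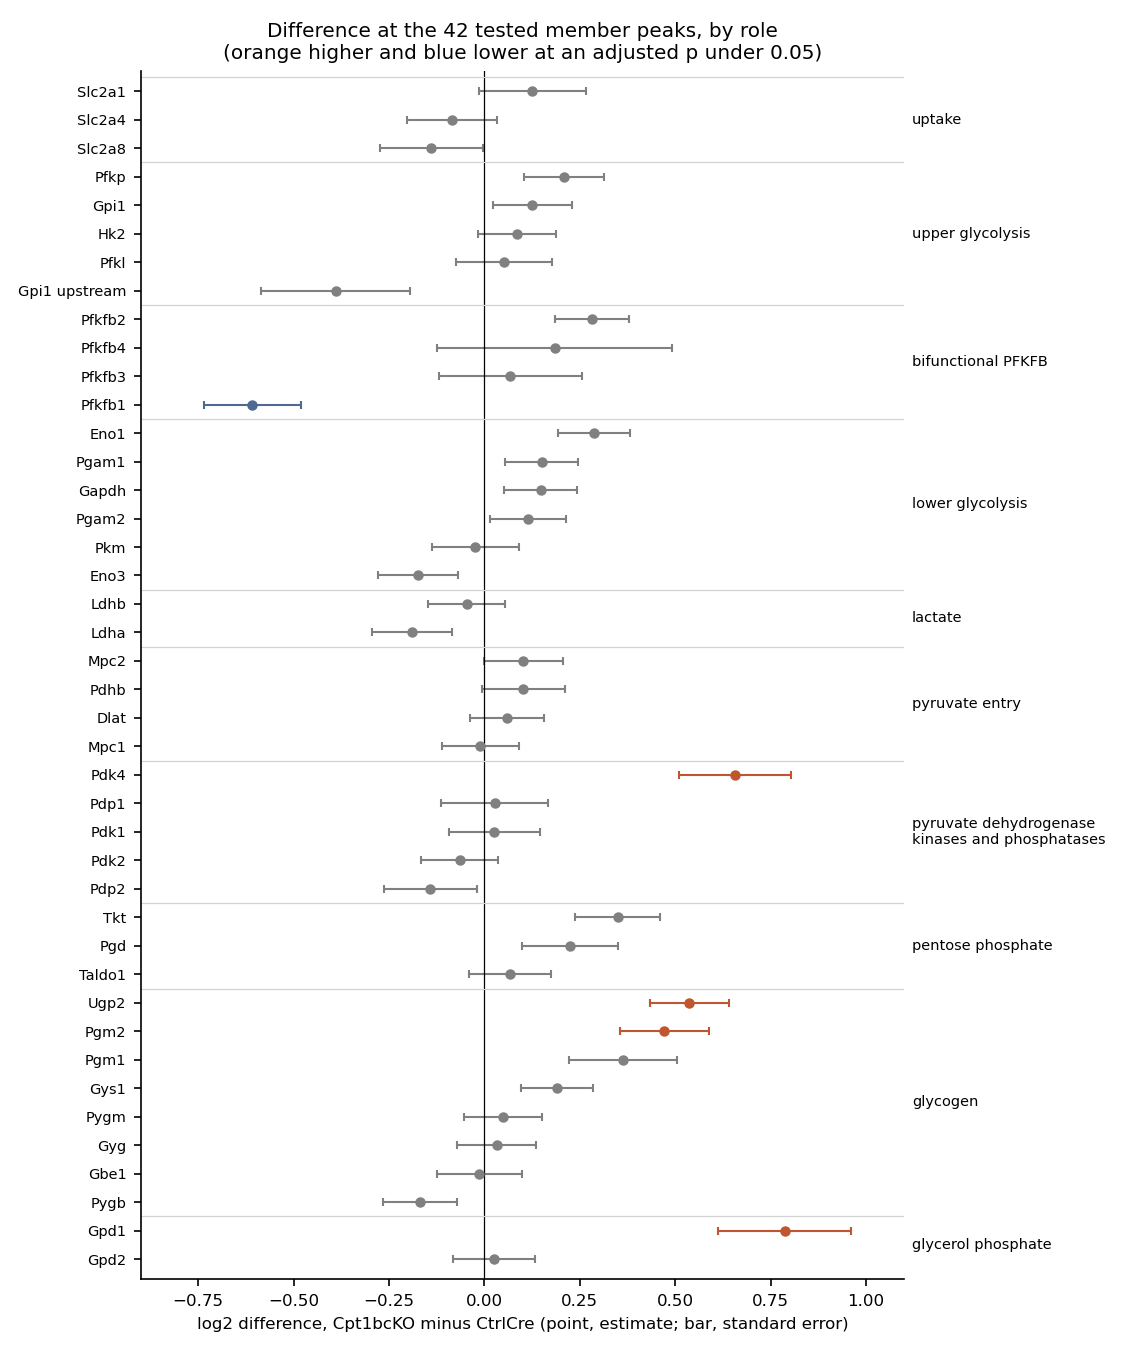
Log2 difference of each tested member peak, Cpt1bcKO minus CtrlCre (x; point, limma estimate; bar, standard error), grouped by role. The points of Gpd1 (0.79), Pdk4 (0.66), Ugp2 (0.54) and Pgm2 (0.47) lie to the right in orange and Pfkfb1 (-0.61) to the left in blue, while of the uncalled members the second Gpi1 peak (-0.39), Pgm1 (0.36) and Tkt (0.35) lie farthest from 0.

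At an unadjusted p under 0.05, 8 of 42 member peaks (19.0%) were higher and 1 (2.38%) lower, where all tested peaks gave 5.84% and 6.98%. Groups did not overlap at 12 member peaks (28.6%) in the higher direction and at 3 (7.14%) in the lower, against 7.8% and 8.46% of all tested peaks. The median log2 difference over the members was 0.07, beside 0.0057 over all tested peaks, and 29 of 42 (69.0%) were positive, beside 51.2% of all tested peaks. That median rested partly on the shallowest library, since it was 0.01 without CtrlCre replicate 2. Because the members were chosen with earlier results known, these shares and the median are descriptions of the list as well.

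The promoters of 4 of the 5 called genes are shown because their peaks carried the change, each as the 250 bases before a RefSeq transcript start that lies in the peak (GRCm38.p6, 5′ to 3′ on the gene's strand). Gpd1, also called, had no window in the RefSeq set used and is therefore missing. Capitals mark matches on either strand to 9 motifs, namely the E-box CACGTG, the core of the hypoxia response element in its forms with A (ACGTG) or with G (GCGTG), the nuclear receptor half-site AGGTCA, the GC box GGGCGG, the CCAAT box, the TATA box written as TATAAA, and the MEF2 and SRF sites. The E-box contains the core with A. A match is only a run of letters. The Pdk4 peak ended at position 5496359, inside its window, so the outer part of that window lay outside the peak. That part holds the CCAAT match 131 bases before the start.
Ugp2, chr11:21371268-21371517, minus strand: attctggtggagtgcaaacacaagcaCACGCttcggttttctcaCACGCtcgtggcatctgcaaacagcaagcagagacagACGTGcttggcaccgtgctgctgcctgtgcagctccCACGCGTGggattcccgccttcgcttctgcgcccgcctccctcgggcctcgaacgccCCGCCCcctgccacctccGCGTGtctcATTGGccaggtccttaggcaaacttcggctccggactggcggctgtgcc
Pgm2 (RefSeq Pgm1), chr4:99929201-99929450, plus strand: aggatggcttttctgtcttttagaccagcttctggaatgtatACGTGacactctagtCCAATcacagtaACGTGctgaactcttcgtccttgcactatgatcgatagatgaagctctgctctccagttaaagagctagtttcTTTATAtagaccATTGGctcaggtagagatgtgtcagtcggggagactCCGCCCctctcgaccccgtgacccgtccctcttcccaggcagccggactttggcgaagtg
Pdk4, chr6:5496279-5496528, minus strand: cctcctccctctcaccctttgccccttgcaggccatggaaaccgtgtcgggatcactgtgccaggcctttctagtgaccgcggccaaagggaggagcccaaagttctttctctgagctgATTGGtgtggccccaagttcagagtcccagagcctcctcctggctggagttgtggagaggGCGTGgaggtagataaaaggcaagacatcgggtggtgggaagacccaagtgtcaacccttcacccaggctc
Pfkfb1, chrX:150587993-150588242, plus strand: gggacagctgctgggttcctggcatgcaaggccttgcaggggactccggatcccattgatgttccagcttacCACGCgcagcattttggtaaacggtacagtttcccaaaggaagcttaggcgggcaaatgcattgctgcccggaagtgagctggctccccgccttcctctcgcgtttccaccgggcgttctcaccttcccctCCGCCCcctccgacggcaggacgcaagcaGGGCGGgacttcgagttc

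The 4 windows differed in composition. Pdk4 had few CpG dinucleotides for its base content, with an observed over expected ratio of 0.28, below all but 4.7% of the 12915 RefSeq windows whose start lies in a tested peak, whereas Ugp2, Pfkfb1 and Pgm2 stood at 0.84, 0.72 and 0.7. The median ratio was 0.7 over the 37 members with a matched window and 0.77 over the 12915 windows. Among those 37, only Eno3 (0.16) and Pygm (0.19) had ratios below that of Pdk4, the muscle enolase and the muscle phosphorylase. The GCGTG core occurred in 24 of 37 member windows (64.9%) against 48.5% of the windows in tested peaks and 28.2% of all 32851 windows. The ACGTG core occurred in 13 (35.1%) against 22.8% and 16.6%, and CCAAT in 19 (51.4%) against 34.6% and 33.8%. The GC box was about as frequent in members (62.2%) as in all windows in tested peaks (62.7%). Each member gave 1 window, the most upstream in its peak, whereas the background counts every RefSeq window, those of members included. AGGTCA occurred in 3 member windows (8.1%, against 9.5% and 14.0%), the E-box in 3 (8.1%, against 8.7% and 6.0%) and TATAAA in 1, that of Pgm2 (2.7%, against 5.4% and 12.4%). No member window held a MEF2 or SRF match, which 0.6% and 1.1% of windows in tested peaks held. The Ugp2 window held 5 GCGTG matches and the Pdk4 window 1.

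Among the glycogen genes, 2 of 8 tested peaks (25%) were called higher in Cpt1bcKO and none was called lower. The shares over all tested peaks were 1.11% and 1.82%, and the role lists too were chosen with earlier results known. By sign alone, 6 of the 8 differences were positive and 2 negative. Ugp2 encodes UDP-glucose pyrophosphorylase, which turns glucose 1-phosphate into UDP-glucose. Its peak (chr11:21367089-21371649), which held the gene start and lay with 85.2% of its bases over introns, read 274, 277 and 311 in CtrlCre and 389, 478 and 389 in Cpt1bcKO. All Cpt1bcKO libraries were above all CtrlCre libraries. The means were 287 ± 20.6 and 419 ± 51.4 (SD, n = 3 each), a 1.45-fold change (log2 difference 0.54 ± 0.10, SE, adjusted p = 0.00308 in limma). This call held in every alternative run, with adjusted p-values up to 0.0464.

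Phosphoglucomutase interconverts glucose 6-phosphate and glucose 1-phosphate and so stands just before UGP2. The deposited table uses older names for its 2 genes, since the peak it calls Pgm2 (chr4:99929065-99932215) lies at the gene that GENCODE vM21 and RefSeq call Pgm1, and the reverse holds for the peak it calls Pgm1 on chromosome 5. The chromosome 4 peak read 183, 142 and 188 in CtrlCre and 254, 244 and 211 in Cpt1bcKO, without overlap. The means were 171 ± 25.2 and 236 ± 22.5 (SD, n = 3 each), a 1.39-fold change (log2 difference 0.47 ± 0.12, adjusted p = 0.0248 in limma). The call was lost without CtrlCre replicate 1 (adjusted p = 0.0526), CtrlCre replicate 2 (0.0995), Cpt1bcKO replicate 1 (0.172) or Cpt1bcKO replicate 2 (0.112) in the same limma fit. The chromosome 5 peak read 87, 84 and 76 in CtrlCre and 116, 108 and 95 in Cpt1bcKO, again without overlap, but with a log2 difference of 0.36 ± 0.14 it did not pass (adjusted p = 0.238, limma).

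The enzymes that build and break glycogen itself were not called. Gys1, muscle glycogen synthase, read 203, 209 and 212 in CtrlCre and 237, 238 and 237 in Cpt1bcKO, groups that did not overlap. Its log2 difference was 0.19 ± 0.10 (adjusted p = 0.416, limma). Its 95% interval ran from -0.01 to 0.39. Pygm, muscle glycogen phosphorylase, read 310, 314 and 318 against 319, 374 and 287. The Cpt1bcKO libraries of Pygm spanned the CtrlCre range. Pygb, the brain phosphorylase isozyme, was lower in every Cpt1bcKO library (217 to 250 against 256 to 277) and did not pass, with a log2 difference of -0.17 (adjusted p = 0.502, limma). Gyg, glycogenin, which primes the particle, and Gbe1, the branching enzyme, had log2 differences of 0.03 and -0.01.

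**Figure D4:**
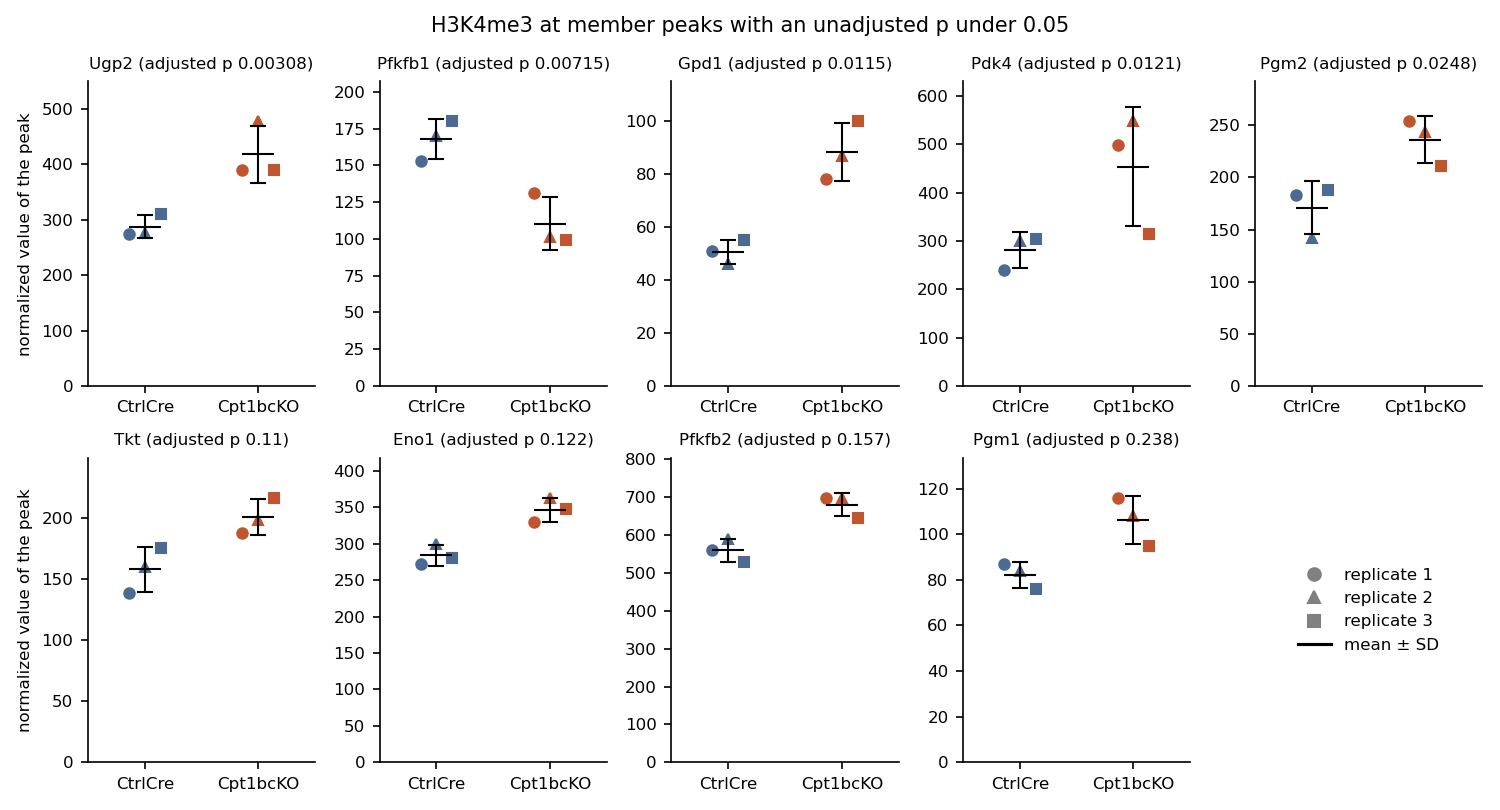
Normalized value of each of the 9 member peaks with an unadjusted p under 0.05 in the 6 libraries (y, from 0), by genotype, with the mean ± SD (n = 3) in black and a symbol for each replicate number. The groups separate in every panel, and at Pdk4 the square of Cpt1bcKO replicate 3 (314) sits just above the highest CtrlCre library (305).

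Of the 5 regulators of pyruvate dehydrogenase, the Pdk4 peak alone was called. PDK4 is the kinase isozyme induced by fasting and by fatty acids. Its peak (chr6:5489968-5496359), 85.6% intronic, began 50 bases before the gene start and ran 6341 bases into the gene. It read 239, 300 and 305 in CtrlCre and 499, 548 and 314 in Cpt1bcKO. Replicates 1 and 2 of Cpt1bcKO stood far above all others, whereas replicate 3 was close to the CtrlCre libraries. The means were 281 ± 36.7 and 454 ± 123 (SD, n = 3 each), a 1.58-fold change (log2 difference 0.66 ± 0.15, adjusted p = 0.0121 in limma). The call was lost without CtrlCre replicate 1 (adjusted p = 0.125), Cpt1bcKO replicate 1 (0.116) or Cpt1bcKO replicate 2 (0.11), and with robust variance estimates in limma (0.214).

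The Pdk4 spread ran alongside 2 properties of the libraries. In the libraries without Y-linked signal the log2 difference was 0.96, and between the pair with it, 305 and 314, it was 0.04. The difference between these effects, -0.92, had an unadjusted p of 0.0016 and an adjusted p of 0.859 in limma with an interaction term. With 1 such library per genotype, presence of the Y chromosome and any other property of those libraries cannot be told apart. Cpt1bcKO replicate 3 also had the lowest summed value of CM markers (6506). That sum includes Actc1, whose peak was itself called lower in Cpt1bcKO (log2 difference -0.89, adjusted p = 0.00179, limma). Genotype and CM content therefore cannot be told apart in it. Over all 42 members the interaction gave 0 calls in limma, 2 at an unadjusted p under 0.05 (Pdk4 and Slc2a4), and 1 call over all 15039 peaks (0.00665%, with 5.42% at an unadjusted p under 0.05). With a term for Y-linked signal in the fit the same 5 member peaks were called as without it. In the 4 libraries without it alone, the calls were Pdk4 and Ugp2, and Gpd1 (adjusted p = 0.193), Pgm2 (0.0875) and Pfkfb1 (0.264) did not pass in limma.

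The other regulators did not pass. Pdk2, the kinase found in most tissues, read 187, 186 and 192 in CtrlCre and 177, 187 and 176 in Cpt1bcKO. Its 95% interval of the log2 difference ran from -0.27 to 0.14. Pdk1, a kinase known as a hypoxia target, read 130, 123 and 137 against 141, 118 and 139. Neither kinase separated the genotypes. The phosphatase peaks read 119, 107 and 113 against 122, 93 and 134 at Pdp1, and 151, 123 and 135 against 121, 134 and 115 at Pdp2, both with overlap. The ratio of Pdk4 to Pdk2 within each library went from a log2 of 0.57 ± 0.19 to 1.29 ± 0.40 (SD, n = 3 each). Its exact permutation p was 0.1, the smallest that 3 against 3 allows, and 0.3 adjusted over the 6 ratios.

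The mitochondrial entry of pyruvate showed overlapping values throughout. Mpc1 and Mpc2 form the mitochondrial pyruvate carrier. Mpc1 read 400, 393 and 411 in CtrlCre and 444, 409 and 348 in Cpt1bcKO. Mpc2, whose peak is shared with Dcaf6, read 465, 393 and 487 against 443, 523 and 475. Both peaks rank in the top 2% of tested peaks by value, and neither differed beyond the spread. Pdhb, a subunit of the E1 enzyme of pyruvate dehydrogenase, read 226, 198 and 180 against 208, 237 and 202, and Dlat read 333, 288 and 337 against 336, 346 and 314. The 4 log2 differences ran from -0.01 to 0.10, with adjusted p-values of at least 0.77 in limma.

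Gpd1, the cytosolic glycerol 3-phosphate dehydrogenase, turns the glycolytic intermediate dihydroxyacetone phosphate into glycerol phosphate, the backbone of triglycerides and a carrier of reducing equivalents. Its peak (chr15:99717359-99718841) read 51, 46 and 55 in CtrlCre and 78, 87 and 100 in Cpt1bcKO. Every Cpt1bcKO library exceeded every CtrlCre library. The means of 50.7 ± 4.51 and 88.3 ± 11.1 (SD, n = 3 each) gave the largest fold of the member peaks, 1.72 (log2 difference 0.79 ± 0.17, adjusted p = 0.0115 in limma). It was a weak peak, at 46.9 per kb, with a counting error of up to 22.4% in 1 library, and its call was lost without Cpt1bcKO replicate 2 (adjusted p = 0.0559) or replicate 3 (0.0922). Its mitochondrial partner Gpd2 read 152, 146 and 149 against 157, 153 and 145, groups that overlapped, with a log2 difference of 0.02.

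Of the 4 PFKFB peaks 1 was called, in the lower direction. Pfkfb1, known best from liver and skeletal muscle, read 153, 170 and 180 in CtrlCre and 131, 101 and 99 in Cpt1bcKO. No libraries overlapped. The means fell from 168 ± 13.7 to 110 ± 17.9 (SD, n = 3 each), or 0.66-fold (log2 difference -0.61 ± 0.13, adjusted p = 0.00715 in limma). Its peak (chrX:150587567-150599603) is the widest of all member peaks, holds 5 Pfkfb1 transcript starts and the start of Apex2, and has the lowest value per kilobase. It lies on the X chromosome, and the direction was the same in the libraries without Y-linked signal (153 and 170 against 131 and 101) and with it (180 against 99), although the call was lost without Cpt1bcKO replicate 3 (adjusted p = 0.0623) and without both libraries carrying Y-linked signal (0.264). Pfkfb2, the heart isozyme, read 559, 590 and 529 in CtrlCre and 698, 698 and 644 in Cpt1bcKO, without overlap, but did not pass, with a log2 difference of 0.28 ± 0.10 (adjusted p = 0.157, limma). Its peak carries a gene identifier that GENCODE vM21 gives to Gm29427, covers the starts of Pfkfb2 and Yod1, and had the highest mean value of all member peaks. Pfkfb3 read 60 to 97 in CtrlCre and 72 to 109 in Cpt1bcKO, and Pfkfb4 19 to 33 and 24 to 32, both with overlap.

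Glucose uptake and the first steps of glycolysis showed no call. Slc2a1, the basal glucose transporter GLUT1, read 124, 88 and 116 in CtrlCre and 128, 115 and 112 in Cpt1bcKO at its promoter peak. Its second peak, 234 bases wide and upstream, had values of 5 to 8 and was too weak to test. Slc2a4, the insulin-responsive transporter GLUT4, read 194, 198 and 247 against 204, 226 and 172, with the highest and the lowest value in the 2 replicate 3 libraries. Both transporters overlapped between genotypes. Slc2a8, the transporter GLUT8, read 119 to 181 against 124 to 142. Hk2 read 409, 356 and 421 against 406, 470 and 384, which overlap, and its 95% interval of the log2 difference ran from -0.13 to 0.30. Gpi1, phosphoglucose isomerase, had a log2 difference of 0.13 at its promoter and of -0.39 at a second peak 3085 to 4555 bases upstream, over Gm12758 and Gm12762, neither of which passed (adjusted p = 0.696 and 0.417, limma). Of the phosphofructokinases, Pfkp was higher in every Cpt1bcKO library (175 to 201 against 156 to 164) without passing (adjusted p = 0.418, limma), and Pfkl overlapped (139 to 146 against 112 to 153).

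In lower glycolysis all 6 peaks were broad and none was called. Eno1, the enolase isozyme of most tissues, came nearest, at 272, 300 and 280 in CtrlCre and 330, 363 and 347 in Cpt1bcKO. These did not overlap, and the log2 difference was 0.29 ± 0.09 (adjusted p = 0.122, limma). Eno3, the muscle enolase, whose peak also holds the Pfn1 start, read 507, 558 and 528 against 405, 523 and 491, with overlap and a log2 difference of -0.17. The ratio of Eno1 to Eno3 within each library was -0.90, -0.89 and -0.91 on the log2 scale in CtrlCre and -0.29, -0.53 and -0.50 in Cpt1bcKO, a difference of 0.46 without overlap. Its exact permutation p of 0.1, two-sided, is the smallest possible, and it was 0.3 adjusted over the 6 ratios. Gapdh (422 to 437 against 442 to 519) and Pgam1 (238 to 256 against 257 to 290) were also above CtrlCre in every Cpt1bcKO library, with log2 differences of 0.15 each. Pkm, pyruvate kinase, read 292, 286 and 357 against 269, 359 and 294, which overlap, under a peak of 8098 bases.

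**Figure D5:**
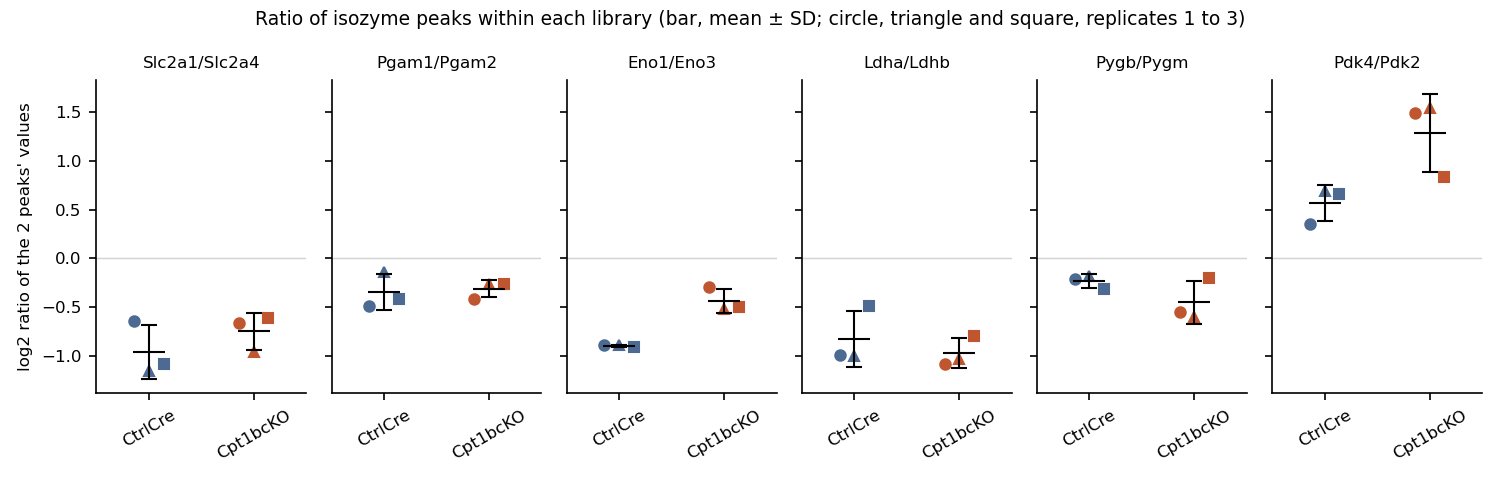
Log2 ratio of the values of 2 isozyme peaks within each library (y), by genotype, with the mean ± SD (n = 3) and a symbol for each replicate number. The genotypes separate for Eno1/Eno3 and Pdk4/Pdk2 and overlap for the other 4 pairs.

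Both lactate dehydrogenase peaks had negative differences, and neither passed the test. Ldha, the muscle-type subunit and a known hypoxia target, read 211, 205 and 246 in CtrlCre and 180, 196 and 203 in Cpt1bcKO, just without overlap, with a log2 difference of -0.19 ± 0.10 (adjusted p = 0.472, limma). Ldhb, the heart-type subunit, read 422, 411 and 347 against 383, 403 and 354, with overlap. The log2 ratio of Ldha to Ldhb was -0.83 ± 0.29 in CtrlCre and -0.97 ± 0.15 in Cpt1bcKO (SD, n = 3 each), a difference of -0.14 with an exact permutation p of 0.5. The ratios of Slc2a1 to Slc2a4, Pgam1 to Pgam2 and Pygb to Pygm differed by 0.21, 0.04 and -0.22, with exact permutation p-values of 0.3, 0.8 and 0.3. The 6 ratios were chosen from 9 pairs of related genes, and the remaining pairs lacked a named peak for at least 1 partner.

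The pentose phosphate pathway branches from glucose 6-phosphate. Tkt, transketolase, read 139, 160 and 176 in CtrlCre and 188, 199 and 217 in Cpt1bcKO. The groups were apart, and the log2 difference of 0.35 ± 0.11 did not pass (adjusted p = 0.11, limma). Pgd, 6-phosphogluconate dehydrogenase, and Taldo1, transaldolase, overlapped between genotypes, at 142 to 218 against 198 to 217 and 145 to 154 against 150 to 165.

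For Hk1, Pfkm, Aldoa, Aldoc and Tpi1 no peak carried the gene's name, although union peaks overlap the transcript starts of all but Aldoc in GENCODE vM21. At Hk1, the constitutive hexokinase, an unnamed peak over an internal start and Hk1os read 231, 228 and 222 in CtrlCre and 228, 216 and 239 in Cpt1bcKO. At Pfkm, the muscle phosphofructokinase, an unnamed peak over an internal start read 332, 298 and 382 against 261, 339 and 255, a log2 difference of -0.25 (adjusted p = 0.363, limma). The peak named Senp1, which holds 2 further Pfkm starts at the outer gene start, read 171, 137 and 180 against 170, 161 and 148, a log2 difference of -0.02. None of these peaks separated the genotypes. The 9125-base peak named Spsb2, which holds 6 starts of the triosephosphate isomerase gene Tpi1, read 258, 288 and 231 against 280, 300 and 293. The peak at an outer start of Aldoa, muscle aldolase, read 35, 28 and 38 against 27, 19 and 25, without overlap but not past the threshold (adjusted p = 0.513, limma). These peaks were not counted among the members.

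A further 67 genes of glucose metabolism were listed beside the members, of which 52 had a tested peak. Of their 53 tested peaks 3 were higher and 1 was lower in Cpt1bcKO, or 5.66% and 1.89%, beside the 1.11% and 1.82% of all tested peaks, and their median log2 difference was 0.0026. Bsg, the chaperone of the lactate transporters, read 334, 356 and 289 in CtrlCre and 440, 494 and 434 in Cpt1bcKO. Mlxipl, the glucose-sensing transcription factor ChREBP, read 133, 105 and 113 against 184, 161 and 153. The third, Tigar, a fructose bisphosphatase, read 139, 128 and 180 against 205, 227 and 201. In each of these the groups were apart. Phkg1, the muscle catalytic subunit of phosphorylase kinase, which switches on glycogen phosphorylase, read 45, 28 and 31 in CtrlCre and 9, 1 and 10 in Cpt1bcKO. This was the lower call, with a log2 difference of -2.53 ± 0.54 (adjusted p = 0.00801, limma), at values where 3 reads amount to 1.95 to 6.97. The 4 genes were named after their values were seen, as all the calls of that list.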

How the data were processed

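H3K4me3 ChIP–seq was compared between 3 CtrlCre and 3 Cpt1bcKO libraries, grouped by their titles. Per the study's methods and the submitters' processing notes, the authors trimmed reads with Trimmomatic 0.39, aligned them to mm10 with STAR 2.6.1d, removed duplicates with Picard 2.21.7, called peaks against input with MUSIC at an FDR of 0.2, merged the peaks of all libraries and assigned genes within 5000 bases (GENCODE vM15). The deposited values per peak are a score, read counts divided by DESeq2 1.26.0 size factors and rounded to whole numbers by the authors. The deposited genotype means of unrounded values, a normalized signal, served to recover the whole counts behind each value, which gave 1 solution for all 15848 peaks (tolerance 5e-06). Columns of the authors' fold changes and p-values were not used.

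For the analysis here, limma 3.58.1 in R 4.3.3 (lmFit, eBayes with trend, two-sided) was run on log2(value + 1) for 15039 peaks whose mean reached 10 (809 did not), with genotype alone and Benjamini-Hochberg adjustment over all of them. Log2 differences are on that scale, which understates low peaks. The labels do not tie the libraries to mice. The study's methods state biological replicates for in vivo work, and the Y-linked and Xist values show that replicate 3 of each genotype came from another animal or pool than replicates 1 and 2. P-values measure the spread between these samples. The 95% intervals of log2 differences come from limma, and counting errors cover the counting of reads only. Isozyme ratios were compared by exact permutation of the 6 libraries. On 15039 simulated peaks of this comparison, the fit recovered 80% of 2-fold and 31% of 1.5-fold changes, with 3.48% false calls. Every simulated peak was given the same extra spread between libraries beyond counting. The members, role lists and motifs were chosen with earlier results of these data known. Values per library are given for member peaks past the threshold or with an unadjusted p under 0.05 without overlap, for 19 substrate choice genes picked by name and for the 3 highest levels per kb. Alternatives were the pseudocount (0.5, 8), the filter (none, mean of 50), quantile and total scaling, voom on recovered counts, robust variance, a replicate block, and leaving out each library. A term for Y-linked signal and the libraries without it were added after seeing the data. Promoter windows came from RefSeq on GRCm38.p6, and positions from GENCODE vM21.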

Additional observations from a re-analysis of the deposited data

How the results depend on the processing

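The counts of called member peaks, 4 higher and 1 lower, were the same with a pseudocount of 0.5 or 8, no filter or a mean of at least 50, quantile or total scaling, voom on recovered counts, the highest peak of each gene, a term for Y-linked signal, and the replicate block, and 3 were higher with robust variance. The labels tie same-numbered libraries by nothing but the number, and the replicate 3 libraries also share Y-linked signal. The correlations of their deviations were -0.081 to 0.105, and 1 of 3 CtrlCre libraries, replicate 3, correlated best with its own number. The replicate block gave 4 higher, 1 lower and a median difference of 0.0679. At an unadjusted p under 0.05, 8 were higher. In the libraries without Y-linked signal, 2 were higher, 0 lower, and the median was 0.1178. Without 1 library the counts ranged from 1 to 4 higher and 0 to 1 lower, and the median from 0.0112 (without CtrlCre replicate 2) to 0.1150 (without CtrlCre replicate 1). The causes were not tested. Differences near 0 changed sign under some settings, none of them past the threshold. Under voom these were Pdk1 (-0.0104), Pfkl (-0.0333), Pdp1 (-0.0211) and Pfkfb3 (-0.0206), under quantile scaling Gpd2 (-0.0040), and in the libraries without Y-linked signal Pkm (0.1045), Mpc1 (0.1038), Slc2a4 (0.1310), Gyg (-0.0098) and Pdp1 (-0.0823). Without 1 library the log2 difference ranged from -0.1405 to 0.0779 at Pkm, -0.1339 to 0.0069 at Ldhb, -0.0887 to 0.0866 at Mpc1, -0.0532 to 0.1372 at Pygm, -0.1757 to 0.0249 at Slc2a4, -0.0141 to 0.0989 at Dlat, -0.0200 to 0.1075 at Pdk1, -0.0916 to 0.1317 at Pfkl, -0.0150 to 0.0919 at Gyg, -0.2989 to 0.0016 at Slc2a8, -0.0466 to 0.0178 at Gbe1, -0.0830 to 0.1781 at Pdp1, -0.0003 to 0.0567 at Gpd2, -0.0216 to 0.2234 at Slc2a1 and -0.1424 to 0.1996 at Pfkfb3. The ratio difference ranged from -0.0331 to 0.1402 for Pgam1/Pgam2 and from -0.2302 to 0.0248 for Ldha/Ldhb, and the other 4 ratios kept their sign. Ugp2 passed in all 17 alternatives, Pfkfb1 in 15, Gpd1 in 14, Pdk4 in 13 and Pgm2 in 12. At the depth and number of libraries of this comparison, the simulated fit recovered 31% of 1.5-fold changes over all tested peaks. Changes of that size can therefore go uncalled. Member peaks held more reads than most, and the share for them alone was not computed.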
